A study of Mus musculus with 8 samples.

Results

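The miR-193 and miR-365 family comprises the mature miRNAs cut from 4 hairpins that lie in a pair of paralogous clusters of the mouse genome, Mir193a with Mir365-2 and Mir193b with Mir365-1. Its 6 members, mmu-miR-193a-5p, mmu-miR-193a-3p, mmu-miR-193b-3p, mmu-miR-365-2-5p, mmu-miR-365-1-5p and mmu-miR-365-3p (without the species prefix from here on), were taken by name from a table of 1978 mature mouse miRNAs, of which 800 had a read in any library. Small RNA libraries were made from 3A cells, a nontumorigenic line of murine hepatocytes, and from the extracellular vesicles (EVs) that the same cells had released over 72 h into medium with EV-depleted serum. All cells carried a retroviral pSUPER vector and had been selected with puromycin at 2 µg/mL. The shRNA was a control in shCTR cells, and in shPCBP2 cells it was directed at the RNA-binding protein PCBP2, so the 8 libraries formed 4 groups of 2 biological replicates: shCTR or shPCBP2 cells and shCTR or shPCBP2 EVs. The comparison asks how PCBP2 bears on the partition of miRNAs between cells and EVs. The knockdown itself was not measured by these libraries, and whether the replicates came from separate infections is not given in the sources used here.

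A miRNA hairpin is cut by Drosha and Dicer into a duplex of a 5p and a 3p arm, 1 of which is usually kept in Argonaute and pairs with target mRNAs through its seed, the bases from 2 to 8. miR-193a-3p and miR-193b-3p are known as suppressors of growth genes in several tumours, and the Mir193b and Mir365-1 cluster has been studied in brown fat. Some RNA-binding proteins favour the export of miRNAs in EVs and others their retention in cells, and short sequence motifs have been described for both. miR-365-2-5p is the miRNA that the study set apart as bearing an export motif (hEXO, bound by SYNCRIP) and no retention motif (CELL).

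The 7 mature arms of the 4 hairpins are shown because they decide which members share a seed and which can be told apart by sequencing. All 7 were matched by name to RefSeq (GRCm38.p6), and capitals mark the seed. miR-193b-5p is not a member and is given for its hairpin.
miR-193a-5p: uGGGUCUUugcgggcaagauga
miR-193b-5p: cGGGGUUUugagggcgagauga
miR-193a-3p: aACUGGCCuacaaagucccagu
miR-193b-3p: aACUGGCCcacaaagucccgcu
miR-365-2-5p: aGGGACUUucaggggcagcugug
miR-365-1-5p: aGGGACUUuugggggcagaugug
miR-365-3p: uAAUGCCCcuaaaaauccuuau

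The 3p arms of miR-193a and miR-193b had the same seed and 19 of 22 identical bases, with the differences U9C, A20G and G21C (miR-193a-3p base, position from the 5′ end, miR-193b-3p base). miR-365-2-5p and miR-365-1-5p likewise had 1 seed and 20 of 23 identical bases, and differed by C10U, A11G and C19A. The arms of each pair therefore have separate rows, although reads with errors at these positions could be split between them. miR-365-3p is identical in both miR-365 hairpins, so its reads cannot be given to either cluster. The Mir365-2 and Mir365-1 hairpins are printed with the mature arms in capitals to show the shared 3p arm beside the differing 5p arms.
Mir365-2: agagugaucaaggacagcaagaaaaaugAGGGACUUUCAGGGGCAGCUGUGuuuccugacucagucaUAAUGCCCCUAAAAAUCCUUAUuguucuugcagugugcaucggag
Mir365-1: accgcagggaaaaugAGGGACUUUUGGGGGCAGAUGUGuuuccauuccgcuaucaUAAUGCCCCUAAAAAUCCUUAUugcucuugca

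On the plus strand of chromosome 11 (GRCm38.p6), Mir193a (chr11:79711969-79712034) and Mir365-2 (chr11:79726400-79726511) were separated by 14365 bases. No other gene of GENCODE M21 overlapped either hairpin, and the nearest gene ending upstream of both was the lincRNA Gm11205, on the same strand. On the plus strand of chromosome 16, Mir193b (chr16:13449523-13449601) and Mir365-1 (chr16:13453840-13453926) were separated by 4238 bases. Both lay within the span of the RefSeq lncRNAs Gm32817 and Gm53058 and in an intron of the antisense gene Gm15738 of GENCODE.

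The retention core of the study, AUUA or AUUG, was in none of the 7 arms when searched on the mature strand. It was in 8.87% of the 1679 mature miRNAs of the table that matched a RefSeq sequence. The export pattern, searched as the 6 positions G, A or U, then G, U or A, then G, A or U, then C, A or G, then U or A, then G or C, was in all 7 arms, but also in 82.1% of the 1679 sequences. Among the 6 members, the letters CCC were in miR-193a-3p, miR-193b-3p and miR-365-3p (in 23.3% of all). GGCA was in miR-193a-5p, miR-365-2-5p and miR-365-1-5p (in 10.5% of all). The seventh arm, miR-193b-5p, had neither. This pair of strings was chosen after the sequences were seen.

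Each library held 26391248 to 38166798 reads, most of them from the cel-miR-39-3p spike-in, a nematode miRNA added to every sample. Mouse miRNAs had 8745848 to 12732173 reads in cell libraries but only 503070 to 687592 in EV libraries, and 466 to 599 miRNAs had reads in a cell library against 183 to 202 in an EV library. A level is given here either as spike-in RPM, the reads per 1000000 spike-in reads of the library, or as miRNA RPM, the reads per 1000000 mouse miRNA reads. How much cell or EV material went with a given amount of spike-in is not given in the sources used here, so the first scale compares libraries as loaded and the second the make-up of each miRNA pool. In neither can fewer cells or EVs be told apart from less RNA in each. By counting error alone, a count of 0 allows up to 3 reads, which is 0.0799 to 0.115 spike-in RPM and 4.36 to 5.96 miRNA RPM in an EV library. Few EV counts were that low. Of the 761 EV counts above 0, 20 were at most 19 reads, so a 0 in EVs may stand for more than 3 reads. Reads were counted without molecular identifiers, so these limits and the intervals below cover counting error only. The 3 hepatocyte markers (miR-122-5p, miR-192-5p and miR-194-5p) summed to 13024 to 20407 spike-in RPM in cells and 184 to 293 in EVs. Of these, miR-194-5p had 218474 to 342726 reads in the cell libraries, whereas miR-122-5p, the leading miRNA of adult liver, had only 356 to 485 there and 795 to 2327 in the EV libraries.

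The 6 members had very different levels in cells, and only 3 of them had any EV read. miR-193a-5p was the highest in cells, followed by miR-365-3p, and miR-365-2-5p was the highest in EVs. miR-193a-3p and miR-193b-3p were low in cells and had 0 reads in all 4 EV libraries. miR-365-1-5p had 21 reads in replicate 1 of shCTR cells and 0 in the other 7 libraries, and was not tested.

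**Figure D1:**
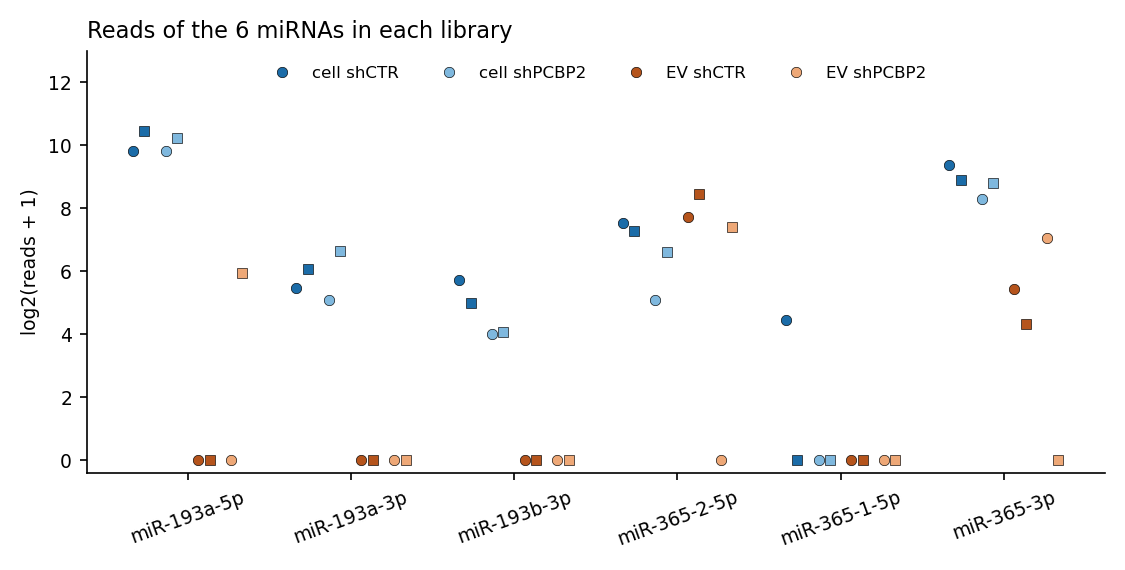
Reads of each member in each library, as log2(reads + 1) on the vertical axis, with circles for replicate 1 and squares for replicate 2 and a value of 0 for no read. miR-193a-5p, from 900 to 1392 reads in cells, had reads in 1 EV library, whereas miR-365-2-5p and miR-365-3p had reads in 3 EV libraries each.

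miR-193a-5p, the 5p arm of Mir193a, had 900 and 1392 reads in shCTR cells and 903 and 1210 in shPCBP2 cells. This was 50.5 and 88.5 spike-in RPM in shCTR cells, and 51.2 and 67.9 in shPCBP2 cells, and the groups overlapped. It ranked between 135 and 150 by reads in the cell libraries. In EVs it had 0 reads in both shCTR EV libraries and in replicate 1 of shPCBP2 EVs, and 61 reads, or 2.01 spike-in RPM, in replicate 2. Its single EV value was 121 miRNA RPM, close to the 70.7 to 119 of the cell libraries on that scale.

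miR-193a-3p, the 3p arm of the same hairpin, had 43 and 67 reads in shCTR cells and 33 and 99 in shPCBP2 cells. The 5p arm made up 92.4% to 96.5% of the reads of the Mir193a hairpin in the 4 cell libraries (94.9% ± 1.74, SD, n = 4). The Wilson 95% interval of the lowest of them, replicate 2 of shPCBP2 cells, was 90.9% to 93.7%, below the 95.1% to 97.5% of replicate 1 of that group. The share thus differed between replicates of 1 group by more than counting error.

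miR-193b-3p, which shares the seed of miR-193a-3p, had 52 and 31 reads in shCTR cells and 15 and 16 in shPCBP2 cells. Its 5p partner miR-193b-5p had 26 and 28 reads in shCTR cells, 0 and 22 in shPCBP2 cells, and none in EVs. Between the 3p arms with the same seed, miR-193a-3p took 45.3% and 68.4% of the summed reads in shCTR cells and 68.8% and 86.1% in shPCBP2 cells. The Wilson 95% interval of replicate 2 of shCTR cells (58.6% to 76.7%) overlapped that of replicate 1 of shPCBP2 cells (54.7% to 80.1%).

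miR-365-3p, the arm made by both miR-365 hairpins, had 668 and 480 reads in shCTR cells and 310 and 442 in shPCBP2 cells. In EVs it had 42 and 19 reads in shCTR EVs, 133 in replicate 1 of shPCBP2 EVs and 0 in replicate 2. It ranked between 159 and 170 in the cell libraries, and in both shCTR EV libraries it was among the lowest miRNAs with reads, at 196 of 202 and 181 of 187.

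miR-365-2-5p, the 5p arm of Mir365-2, had 184 and 153 reads in shCTR cells and 33 and 96 in shPCBP2 cells. In EVs it had 209 and 349 reads in shCTR EVs, 0 in replicate 1 of shPCBP2 EVs and 167 in replicate 2. Its rank was 222 to 310 in the cell libraries, but 129 of 202, 95 of 187 and 120 of 183 in the EV libraries where it had reads. Of the reads of both 5p arms, miR-365-2-5p took 89.8% in replicate 1 of shCTR cells and 100% in the other libraries with reads.

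Over the 4 cell libraries, the mean level in spike-in RPM fell in the order miR-193a-5p (64.5), miR-365-3p (27.6), miR-365-2-5p (6.83), miR-193a-3p (3.52), miR-193b-3p (1.66) and miR-365-1-5p (0.295). The lengths of 22 or 23 bases make a correction for length needless, but how well each arm was captured was not measured. The first 3 of these did not overlap with each other in any cell library, whereas each neighbouring pair from miR-365-2-5p on did overlap. In EVs the means were 6.61 for miR-365-2-5p, 1.45 for miR-365-3p and 0.502 for miR-193a-5p, and all of them overlapped, since each had a 0 in at least 1 EV library.

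The absence of EV reads was set beside that of other miRNAs with similar cell counts. Of the 772 miRNAs with reads in cells, 31% had a read in any EV library. Between 10 and 100 mean cell reads, the band of miR-193a-3p and miR-193b-3p, 17.1% of 210 miRNAs had any EV read. Between 100 and 1000, the band of miR-365-2-5p and miR-365-3p, 49.5% of 99 had any EV read and 28.3% had reads in 2 or more EV libraries. Between 1000 and 10000, the band of miR-193a-5p, 89.9% of 69 miRNAs had any EV read and 76.8% in 2 or more EV libraries. miR-193a-5p, with EV reads in 1 library, was among the minority of this band. Its mean of 1101 cell reads, however, lay near the lower edge of the band, next to the band with 28.3% in 2 or more EV libraries.

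**Figure D2:**
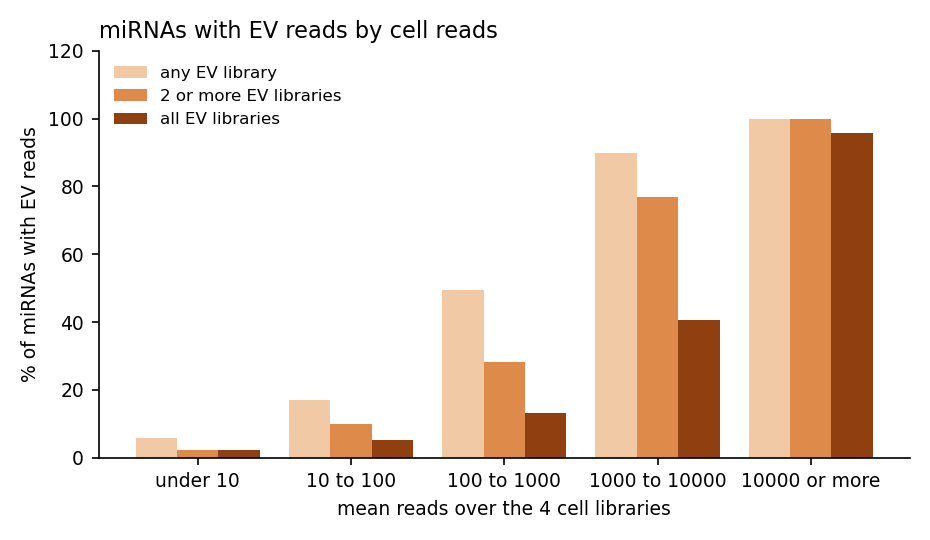
Percentage of miRNAs with reads in any, in 2 or more, or in all 4 EV libraries (bars) by their mean reads over the 4 cell libraries. Detection in any EV library went from 5.92% below 10 reads to 100% from 10000 reads, with miR-193a-3p and miR-193b-3p in the band at 17.1%, miR-365-2-5p and miR-365-3p in that at 49.5%, and miR-193a-5p in that at 89.9%.

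Against the spike-in, members with 0 reads in both EV libraries of a group were set against the cell libraries of that group. With 3 reads per library set as the limit for 0, miR-193a-5p was at least 622-fold lower in shCTR EVs than in shCTR cells. In replicate 1 of shPCBP2 EVs, however, it had 0 reads where the level of replicate 2 would have given 75. The fold limits of this paragraph therefore cover counting error only, and the true folds may be smaller. miR-193a-3p was at least 29.9-fold lower in shCTR and 41.6-fold lower in shPCBP2, and miR-193b-3p at least 21.9-fold and 9.79-fold lower. Relative to mouse miRNA reads, miR-193a-5p was still at least 19.4-fold lower in shCTR EVs, whereas its 1 shPCBP2 EV library with reads, at 121 miRNA RPM, was above every cell library. On that scale the limit of an EV library was near or above the cell level of miR-193a-3p (4.55 ± 1.66 in shCTR and 5.80 ± 2.87 in shPCBP2, SD, n = 2 each) and of miR-193b-3p (3.37 ± 1.01 and 1.49 ± 0.317), so a lower share of the EV pool was not detectable at this depth for the 193-3p arms. miR-365-1-5p, at 0 in 3 of the 4 cell libraries, gave no such comparison.

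miR-365-2-5p and miR-365-3p were 2 of the 180 miRNAs that had a read in 2 or more libraries of each compartment and were tested with the edgeR quasi-likelihood test, libraries scaled by the spike-in. In spike-in RPM, miR-365-2-5p had 10.3 and 9.72 in shCTR cells, 1.87 and 5.39 in shPCBP2 cells, 7.53 and 13.4 in shCTR EVs, and 0 and 5.49 in shPCBP2 EVs. Its EV and cell values overlapped under both shRNAs. The log2 EV over cell difference, over both shRNAs, was -0.17 (SE 1.48, 95% interval -3.78 to 3.43, Benjamini-Hochberg adjusted p = 0.912 by edgeR), against a median of -4.94 for all 180 tested miRNAs. It was the 28th highest of them. The difference was 0.06 (SE 2.09) in shCTR and -0.40 (SE 2.10) in shPCBP2.

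miR-365-3p had 37.5 and 30.5 spike-in RPM in shCTR cells, 17.6 and 24.8 in shPCBP2 cells, 1.51 and 0.730 in shCTR EVs, and 3.54 and 0 in shPCBP2 EVs. All 4 EV libraries were below all 4 cell libraries. The log2 EV over cell difference was -4.24 (SE 1.55, 95% interval -8.03 to -0.46, Benjamini-Hochberg adjusted p = 0.0432 by edgeR) relative to the spike-in, although 0.82 relative to the total mouse miRNA count as given below, and was near the median of all tested miRNAs, and 60% of these were lower. In the same test 143 of 180 miRNAs (79.4%) were called, 71.1% of the tested as lower in EVs and 8.33% as higher, so that 1 of the 2 tested members being called was not above the background. The call for miR-365-3p was lost when any library other than those of shPCBP2 EVs was left out in turn.

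**Figure D3:**
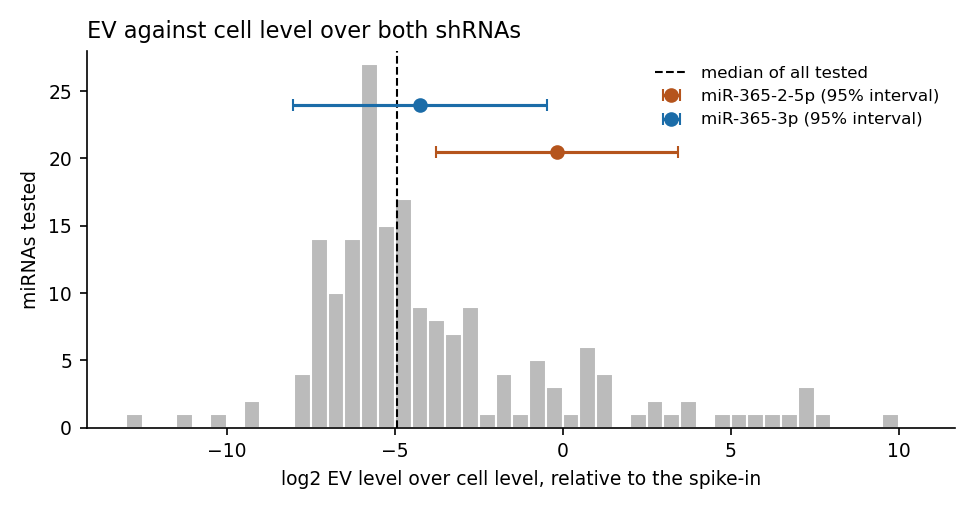
Histogram of the log2 EV over cell difference of the 180 tested miRNAs relative to the spike-in (counts on the vertical axis), with the values and 95% intervals of miR-365-2-5p and miR-365-3p drawn at arbitrary heights and the median of all tested as a dashed line. The median was -4.94, miR-365-3p was at -4.24 and miR-365-2-5p at -0.17, its lower limit of -3.78 lying above the median. Scaled by the total mouse miRNA count instead, these were 0.15, 0.82 and 4.97.

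The EV over cell difference depended on the scale. In miRNA RPM, miR-365-2-5p had 14.5 and 13.1 in shCTR cells, 3.77 and 7.60 in shPCBP2 cells, 304 and 630 in shCTR EVs, and 0 and 332 in shPCBP2 EVs. The 3 EV libraries with reads were above every cell library, and the fourth was at 0. With libraries scaled by the total mouse miRNA count, the log2 difference was 4.97 (SE 1.75, Benjamini-Hochberg adjusted p = 0.0493 by edgeR), where 57.8% of the tested were called, 35% as higher in EVs and 22.8% as lower, and the median of all tested was 0.15.

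miR-365-3p had 52.5 and 41.0 miRNA RPM in shCTR cells, 35.4 and 35.0 in shPCBP2 cells, 61.1 and 34.3 in shCTR EVs, and 215 and 0 in shPCBP2 EVs. EV and cell values overlapped on this scale, and the log2 difference was 0.82 (SE 1.45, Benjamini-Hochberg adjusted p = 0.669 by edgeR). With all libraries miR-365-2-5p had the higher EV over cell value of the tested members on both scales, but the order turned without replicate 2 of shPCBP2 EVs (-4.66 for miR-365-2-5p and -3.75 for miR-365-3p relative to the spike-in), and the difference between these members was not tested.

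The value of miR-365-2-5p over both shRNAs rested on replicate 2 of shPCBP2 EVs, whereas the 0.06 in shCTR compared the shCTR libraries. Without replicate 2 the log2 difference over both shRNAs relative to the spike-in was -4.66. The remaining shPCBP2 EV library had 0 reads, so this value depends on the prior count. Without replicate 1 the log2 difference was 0.33. At the level of the other replicate, 206 reads of miR-365-2-5p would have fallen in the library with 0. Likewise 108 reads of miR-365-3p would have fallen in replicate 2 of shPCBP2 EVs, where it had 0. Among the 180 tested miRNAs, 4 were at 0 only in replicate 1 of shPCBP2 EVs, 9 only in replicate 2, and 127 had no 0 in EVs.

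The EV libraries also held miRNAs of other cell types. The summed level of 3 erythroid and serum miRNAs (miR-486a-5p, miR-451a and miR-144-3p) was 1009 to 1275 spike-in RPM in EVs and 3.85 to 10.8 in cells, where miR-451a and miR-144-3p had 0 reads. That of 4 leukocyte miRNAs was 234 to 422 in EVs and 0.786 to 5.05 in cells, where miR-142a-3p and miR-142a-5p had 0 reads. That of 5 mesenchymal miRNAs, of which the study also lists miR-214-3p among its miRNAs with both motifs, was 83.9 to 173 in EVs and 6.63 to 21.8 in cells. The summed level of 2 endothelial miRNAs overlapped, at 101 to 187 in EVs and 110 to 170 in cells. By contrast, 3 muscle miRNAs summed to 3.46 to 5.85 in EVs and 696 to 1112 in cells. The cell sum was nearly all miR-206-3p, with 12252 to 19342 reads in the cell libraries. There miR-1a-3p had 6 to 52 reads and miR-133a-3p 0 to 13. The part of these sources in the EV reads of miR-365-2-5p, miR-365-3p and miR-193a-5p was not tested.

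The reads of the miR-365 arms were also compared within each library, where no scaling enters. The share of miR-365-2-5p among the reads of miR-365-2-5p and miR-365-3p was 21.6% and 24.2% in shCTR cells and 9.62% and 17.8% in shPCBP2 cells, with upper Wilson 95% limits of 24.5%, 27.7%, 13.2% and 21.3%. It was 83.3% and 94.8% in shCTR EVs, with lower limits of 78.2% and 92.1%. In shPCBP2 EVs the replicates took the opposite ends, with 0 of 133 reads (0% to 2.81%) in replicate 1 and 167 of 167 (97.8% to 100%) in replicate 2. Thus 3 of the 4 EV libraries were above all cell libraries and 1 was below all of them.

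The mean share was 69.5% ± 46.9 in EVs and 18.3% ± 6.35 in cells (SD, n = 4 each). The difference of 51.2 percentage points did not pass a two-sided exact permutation test (p = 0.143), whose smallest p is 0.0286. Without 1 library the difference ranged from 41.1 percentage points, without replicate 2 of shPCBP2 EVs (exact permutation p = 0.286), to 74.4, without replicate 1 (exact permutation p = 0.0571, the smallest that 3 against 4 libraries allow). Because miR-365-3p comes from both hairpins, this share is not the arm ratio of Mir365-2.

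**Figure D4:**
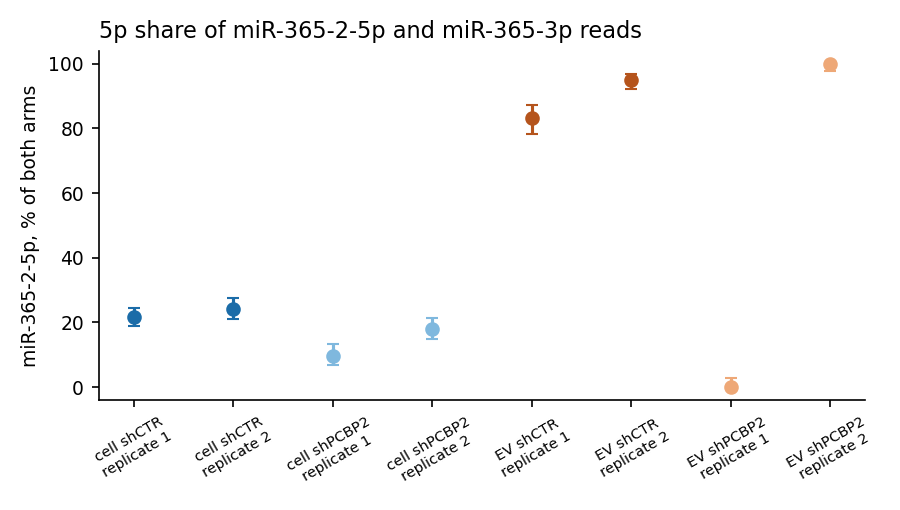
Share of miR-365-2-5p among the reads of miR-365-2-5p and miR-365-3p (vertical axis, %) in each library, with Wilson 95% intervals as bars. The cell libraries lay between 9.62% and 24.2%, the shCTR EV libraries at 83.3% and 94.8%, and the shPCBP2 EV libraries at 0% and 100%.

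The effect of PCBP2 silencing on partition was the difference of the EV over cell ratio between shPCBP2 and shCTR. For miR-365-2-5p the log2 ratio differed by -0.47 (SE 2.96, 95% interval -7.68 to 6.75, Benjamini-Hochberg adjusted p = 0.992 by edgeR). For miR-365-3p it differed by 1.34 (SE 2.74, 95% interval -5.33 to 8.02, adjusted p = 0.992, edgeR). Neither member was called, as against 4 of 180 miRNAs (2.22%), and the intervals allow large shifts either way. Of the miRNAs with the retention motif alone that the study set beside miR-365-2-5p, miR-195a-5p differed by -0.84 (SE 1.45) and miR-421-3p by 0.32 (SE 1.16), and miR-31-3p had 0 reads in EVs. Of the study's 9 miRNAs with both motifs, 6 were tested, of which 4 had higher and 2 lower values, against a median of -0.08 for all tested miRNAs, and 1 was called, miR-345-3p (9.88, SE 1.26, adjusted p = 0.0301, edgeR). The values reached from 9.88 for miR-345-3p down to -11.40 for miR-192-5p (SE 2.29, adjusted p = 0.0917, edgeR), which had 1058 and 62 reads in shCTR EVs and 0 in both shPCBP2 EV libraries. miR-214-3p (7.70, SE 1.64, adjusted p = 0.103, edgeR) had 0 reads in both shPCBP2 cell libraries, and fitted values with a group at 0 depend on the prior count. The study selected that list in part on these libraries, so its count is not independent evidence of direction.

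In EVs alone, the log2 level in shPCBP2 against shCTR was -1.93 (SE 2.16, adjusted p = 0.742) for miR-365-2-5p and 0.66 (SE 1.94, adjusted p = 0.893) for miR-365-3p by the edgeR test, and 13 of 180 miRNAs (7.22%) were called. Both values turned on the libraries with 0 reads. Without replicate 1 of shPCBP2 EVs, miR-365-3p was at -7.63, and without replicate 2, miR-365-2-5p was at -10.91. Each of these fits left the shPCBP2 EV group at 0 reads, so the sizes depend on the prior count and are not estimates of a fold. These comparisons share the EV libraries with the ratio above. For miR-193a-5p, with reads in shPCBP2 EVs only, the mean level was 8.98 times the limit of 3 reads per library in shCTR EVs, and rested on 1 library. That limit covers counting error only.

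In cells, 5 members reached a mean of 10 reads and were tested by edgeR in the 4 cell libraries alone, where 25 of 451 miRNAs (5.54%) were called, all as lower in shPCBP2, and the median log2 difference was -0.51. The direction depended on the scaling, as 12 were called higher and 16 lower under TMM scaling (median -0.05), 15 and 16 under the median of ratios (median -0.02), and 6 and 30 under the total mouse miRNA count (median -0.23). None of the 5 members was called. miR-365-2-5p had the smallest p, with a log2 difference of -1.46 (SE 0.58, 95% interval -2.62 to -0.31, unadjusted p = 0.0144, Benjamini-Hochberg adjusted p = 0.131 by edgeR). miR-365-3p was at -0.68 (SE 0.38, adjusted p = 0.279) and miR-193b-3p at -1.48 (SE 1.45, adjusted p = 0.604) in the same edgeR test. miR-193a-5p was at -0.22 (SE 0.32, adjusted p = 0.736), but at 0.27, 0.28 and 0.069 under the other scalings, and miR-193a-3p at 0.16 (SE 0.80, adjusted p = 0.955), again by edgeR. In the fit of all 8 libraries, where 0 of 180 (0%) were called in cells by edgeR, 25 at an unadjusted p under 0.05 and 18 by DESeq2, miR-365-2-5p and miR-365-3p had the same differences with an SE of 2.14 and 1.93 and an adjusted p of 0.938 each.

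miR-365-2-5p, miR-365-3p and miR-193b-3p were lower in both shPCBP2 cell libraries than in both shCTR cell libraries. This held in spike-in RPM, where 50.3% of the 451 miRNAs did so, and in miRNA RPM, where 39% did, and the 3 of 5 members are to be read against these shares. In spike-in RPM, miR-193b-3p had 2.92 and 1.97 in shCTR cells and 0.850 and 0.898 in shPCBP2 cells. miR-193a-3p had 2.41 and 4.26 in shCTR cells and 1.87 and 5.56 in shPCBP2 cells, and its groups overlapped. The difference between these 3p arms with the same seed was not tested.

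**Figure D5:**
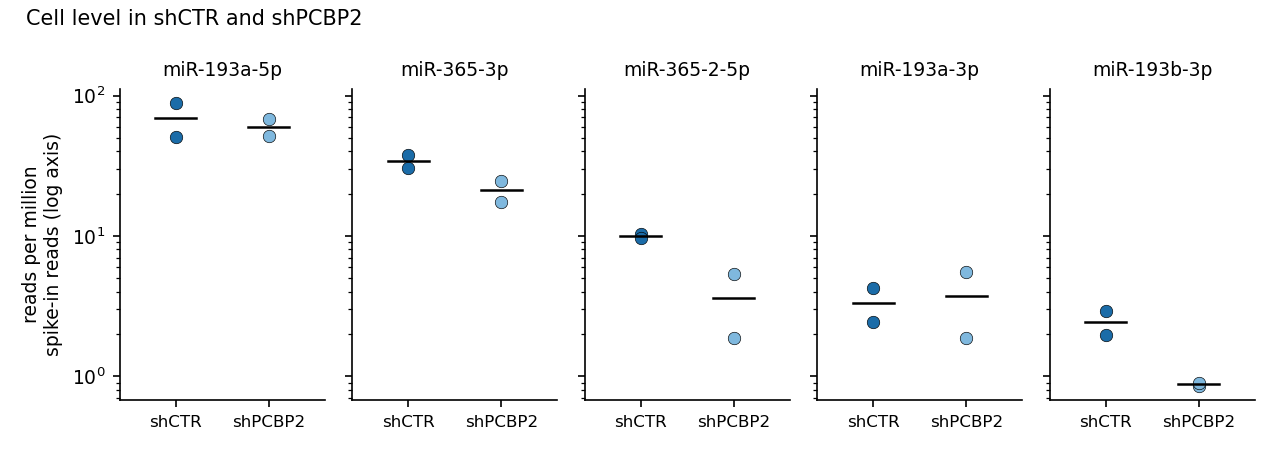
Level of 5 members in the cell libraries (points, spike-in RPM, log axis) with the mean of each group as a line. The groups overlap for miR-193a-5p and miR-193a-3p, and both shPCBP2 values lie below both shCTR values for miR-365-3p, miR-365-2-5p and miR-193b-3p.

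Profiles were compared by the mean absolute difference of log2(spike-in RPM + 1), each profile centred on its own mean. Over the 8 libraries, the nearest to miR-365-2-5p were miR-1247-5p (0.482), miR-10b-5p (0.559) and miR-339-5p (0.670), against a median of 2.28 over the 179 other tested miRNAs. miR-1247-5p had 113 and 52 reads in shCTR cells, 16 and 11 in shPCBP2 cells, 89 and 243 in shCTR EVs, and 0 and 123 in shPCBP2 EVs, so it too was at 0 in replicate 1 of shPCBP2 EVs. The nearest to miR-365-3p were miR-671-5p (0.330), miR-421-3p (0.343) and miR-425-5p (0.355), against a median of 1.12. In replicate 2 of shPCBP2 EVs, where miR-365-3p had 0 reads, these had 1704, 94 and 118 reads.

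Over the 4 cell libraries and 450 other miRNAs, the nearest to miR-193b-3p were miR-374c-5p (0.0260), miR-362-3p (0.0435) and miR-25-5p (0.0744), and the nearest to miR-365-3p miR-96-5p (0.0345), miR-6960-5p (0.0392) and miR-30b-5p (0.0477). Those of miR-365-2-5p were miR-505-3p (0.147), miR-582-5p (0.158) and miR-322-3p (0.160). Those of miR-193a-5p were miR-503-3p (0.104), miR-125b-2-3p (0.105) and miR-547-3p (0.119), and those of miR-193a-3p miR-126b-3p (0.0905), miR-331-5p (0.137) and miR-3473a (0.141). The medians over the 450 were 0.363 for miR-193b-3p, 0.319 for miR-365-3p, 0.521 for miR-365-2-5p, 0.384 for miR-193a-5p and 0.476 for miR-193a-3p. At 0.850 to 2.92 spike-in RPM, miR-193b-3p was of the size of the 1 added to each value. That flattens its profile, so distances are not comparable between members. No member was among the 3 nearest of another member.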

How the data were processed

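The authors trimmed the reads, kept forward reads, aligned them to miRBase hairpins and the spike-in with mirPRo and NovoAlign, and deposited raw read counts per mature miRNA in 1 table, with counts above 999999 printed to 6 digits. The members and gene lists were chosen with earlier results of these data known. Named are the 6 members, miR-193b-5p, the study's motif lists and the 3 nearest profiles of each tested member.

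Counts were tested with edgeR 4.0.16 in R 4.3.3 (glmQLFit, glmQLFTest; library size the spike-in count, prior count 0.125) on the 180 miRNAs with a read in 2 or more libraries of each compartment, with compartment, shRNA and their interaction, and on 451 miRNAs with a mean of 10 or more reads in the 4 cell libraries. p-values were adjusted by Benjamini-Hochberg over all tested, and an adjusted p under 0.05 was called. Standard errors come from the F statistic. Levels, Wilson intervals and permutation tests used scipy 1.17.1, numpy 2.4.6 and pandas 2.3.3 in Python 3.11.15. Replicate numbers follow the titles, from which the deposited column names of the shPCBP2 libraries differ. Alternatives were other scalings and filters, DESeq2 1.42.0, a prior count of 2, a replicate block and each library left out. Of these steps, only the edgeR tests of the EV/cell ratio and of the cell libraries alone were run on simulated counts. The fold limits, shares, permutation tests and profiles were not.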

Additional observations from a re-analysis of the deposited data

How the results depend on the processing

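The edgeR comparisons were recomputed with libraries scaled by TMM, by the median of ratios as in DESeq2, or by the total mouse miRNA count, with no filter or with 10 or more counts in every library, with DESeq2, with a prior count of 2, with a replicate block and without each library in turn, except that the cell libraries alone were not run with the filter on 10 counts or the prior count of 2. The 5p share was recomputed within each shRNA, with both 5p arms and without each library, and kept its direction at 41.1 to 74.4 percentage points. The fold limits and profile distances were not recomputed. The filter on 10 counts left neither miR-365 arm to test. With 2 libraries in a group, 1 library could set a value, and a lone remaining library was assumed to vary like the others. Where that library had 0 reads, the value depended on the prior count, and the prior count of 2 was not run on these fits. EV depth limits what can be said of the 193-3p arms, whose cell level lay near the limit of a count of 0 in miRNA RPM. The causes of the changes below were not tested.

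The EV over cell difference of miR-365-3p, -4.24 relative to the spike-in, turned to 0.36 under TMM, 0.45 under the median of ratios and 0.82 under the total mouse miRNA count, and that of miR-365-2-5p, -0.17, to 4.59, 4.71 and 4.97 (edgeR adjusted p = 0.0675, 0.0662 and 0.0493). The medians of all tested moved from -4.94 to -0.28, -0.18 and 0.15 in the same order, so both arms kept a value above the median under every scaling. With no filter 398 miRNAs were called in this comparison, of 800 tested, in place of 143 of 180. Leaving out 1 library gave -8.39 to -3.75 for miR-365-3p and -4.66 to 0.33 for miR-365-2-5p. The sign of miR-365-2-5p thus depended on both the scaling and the library left out.

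In the EV/cell ratio of shPCBP2 against shCTR, 4 miRNAs were called, against 13 under TMM, 2 under the median of ratios, 0 with the filter on 10 counts, 14 with DESeq2 and 0 to 11 without 1 library. miR-365-2-5p ranged from -9.44 to 0.53 and miR-365-3p from -6.94 to 2.34 without 1 library. With all libraries, neither was called in any alternative that tested it. In EVs, 13 calls became 7 with no filter, 7 with the filter on 10 counts, 27 with DESeq2, 1 with only the 4 libraries compared and 1 to 21 without 1 library, where miR-365-3p ranged from -7.63 to 1.65 and miR-365-2-5p from -10.91 to -0.93. In cells, 0 calls in the fit of all libraries became 5 under TMM, 1 under the median of ratios, 3 with the total count, 8 with the filter on 10 counts, 18 with DESeq2 and 39 with only the 4 libraries compared.

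In the cell libraries alone, 25 calls became 44 with DESeq2 and 0 to 35 without 1 library. miR-193a-5p, at -0.22, turned to 0.27 under TMM, 0.28 under the median of ratios and 0.069 under the total count, and ranged from -0.57 to 0.24 without 1 library. miR-193a-3p, at 0.16, ranged from -0.83 to 0.74. miR-365-2-5p (-2.42 to -0.89), miR-365-3p (-0.95 to -0.19) and miR-193b-3p (-1.73 to -0.96) kept their sign in all 10 alternatives each. No member was called in any alternative that gave it an adjusted p. DESeq2 gave none for miR-193a-3p, miR-193b-3p and miR-365-2-5p, which could not be called there.

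Samples with the same replicate number did not deviate together (correlations of -0.077 to 0.090), so the numbers were not taken to pair the samples. These are the numbers of the titles, and the deposited column names give the shPCBP2 libraries the numbers 1 and 3 in cells and 2 and 3 in EVs. With the replicate block, miR-365-3p was at -4.76 in EVs against cells (edgeR adjusted p = 0.0547), the calls in the EV/cell ratio were 1 and those in EVs 2, and no other call on a member changed.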
